A study of Homo sapiens with 2 samples.

Results

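The 40 genes described here encode parts of the machinery that makes ribosomes: RNA polymerase I and its initiation factors, nucleolar chaperones and scaffold proteins, the core proteins of small nucleolar ribonucleoproteins (snoRNPs), and assembly factors of the small and large ribosomal subunits. They were given as a list of names with shared functions, drawn up with earlier results of these data known, and were matched by gene symbol and Entrez identifier. All 40 were found among the 25702 genes of the deposited annotation, and all 40 were among the 12536 genes with at least 1 CPM (counts scaled to the size of the library) in at least 1 library, called measured genes here. Expression had been profiled by RNA sequencing in K562, an erythroid leukemia cell line with a BCR-ABL1 fusion, grown as an asynchronous culture in RPMI medium with fetal bovine serum. One library came from cells exposed to 1 µM cabozantinib, an inhibitor of MET, VEGF receptors and other tyrosine kinases, for 48 h, and 1 library came from cells exposed to the vehicle DMSO for 48 h. The comparison asks how the drug changed the transcriptome of this line.

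With 1 library of 1 line in each group, nothing here could be checked against replicates and no test between conditions was possible. Each ratio of cabozantinib over DMSO is given with an exact Clopper-Pearson interval at 95%, which covers counting error only. A gene is called higher or lower where the ratio passed 1.5-fold and the interval excluded no change. The cabozantinib library held 25505289 counts over genes and the DMSO library 25025243. All 11 markers of K562 and its fusion partners were measured, with summed levels of 34203.5 CPM in the cabozantinib library and 13193 CPM in the DMSO library. Of these 11, 8 were called higher, where 8.15% of all measured genes were. The 8 included the fetal and embryonic globin genes HBG1, HBG2 and HBE1. Of 10 markers of other cell types, MS4A1, ELANE and MPO had 0 counts in both libraries, and the 5 that were measured summed to 93.0 CPM with cabozantinib and 86.5 CPM with DMSO, most of it EPCAM at 86.1 and 70.4 CPM. The part of the erythroid markers' rise in the differences below was not tested. In bulk RNA, fewer cells of a type and less RNA per cell cannot be told apart.

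Ribosomal RNA is made by RNA polymerase I in the nucleolus as a long precursor, which is cut, folded and chemically modified while assembly factors and ribosomal proteins join it. Box C/D snoRNPs guide ribose methylation and box H/ACA snoRNPs guide pseudouridylation of the precursor. The pathway takes up much of the transcriptional effort of growing cells, and many of its genes are textbook targets of MYC, which binds the E-box CACGTG.

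Most of the 40 genes had more reads with cabozantinib than with DMSO, by modest amounts. Their median log2 ratio was 0.35, with medians of 0.28 and 0.44 for the lower and upper ends of the intervals, against a median of 0.01 over all measured genes. Of the 40, 8 were called higher (UBTF, UTP20, NOP16, RRS1, NOP56, UTP15, NOP2 and MRTO4) and 0 were called lower. By the same rule 8.15% of all measured genes were higher and 12.3% were lower, so 8 of 40 compares with a background of 8.15%, and 0 of 40 with one of 12.3%. At a smaller size, a log2 ratio of 0.32, 23 were higher against a background of 19.2%, and 0 were lower against one of 20.5%. At 2-fold, UBTF alone was higher against a background of 2.71%, and 0 were lower against one of 5.76%. With a filter of 10 CPM, which 39 of the 40 genes passed, the backgrounds at 1.5-fold were 6.46% higher and 8.28% lower. The counts among the 40 genes were still 8 and 0 under that filter.

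The interval lay above no change for 28 of the 40, against 34.8% of measured genes, and below it for 6, against 32.1%. For the other 6 the interval held no change. These shares are not like for like, because intervals narrow as counts grow. The medians of the lower and upper ends were 0.28 and 0.44 for the 40 genes. Over all measured genes they were -0.16 and 0.17, a wider span. The 6 below no change were NOB1, DDX21, NPM3, NOP10, BOP1 and NHP2, and none of them passed the smaller size. The quartiles of the 40 log2 ratios were 0.08 and 0.55, while those over all measured genes were -0.29 and 0.27. The lowest of the 40 was -0.31 and the highest 1.11.

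**Figure D1:**
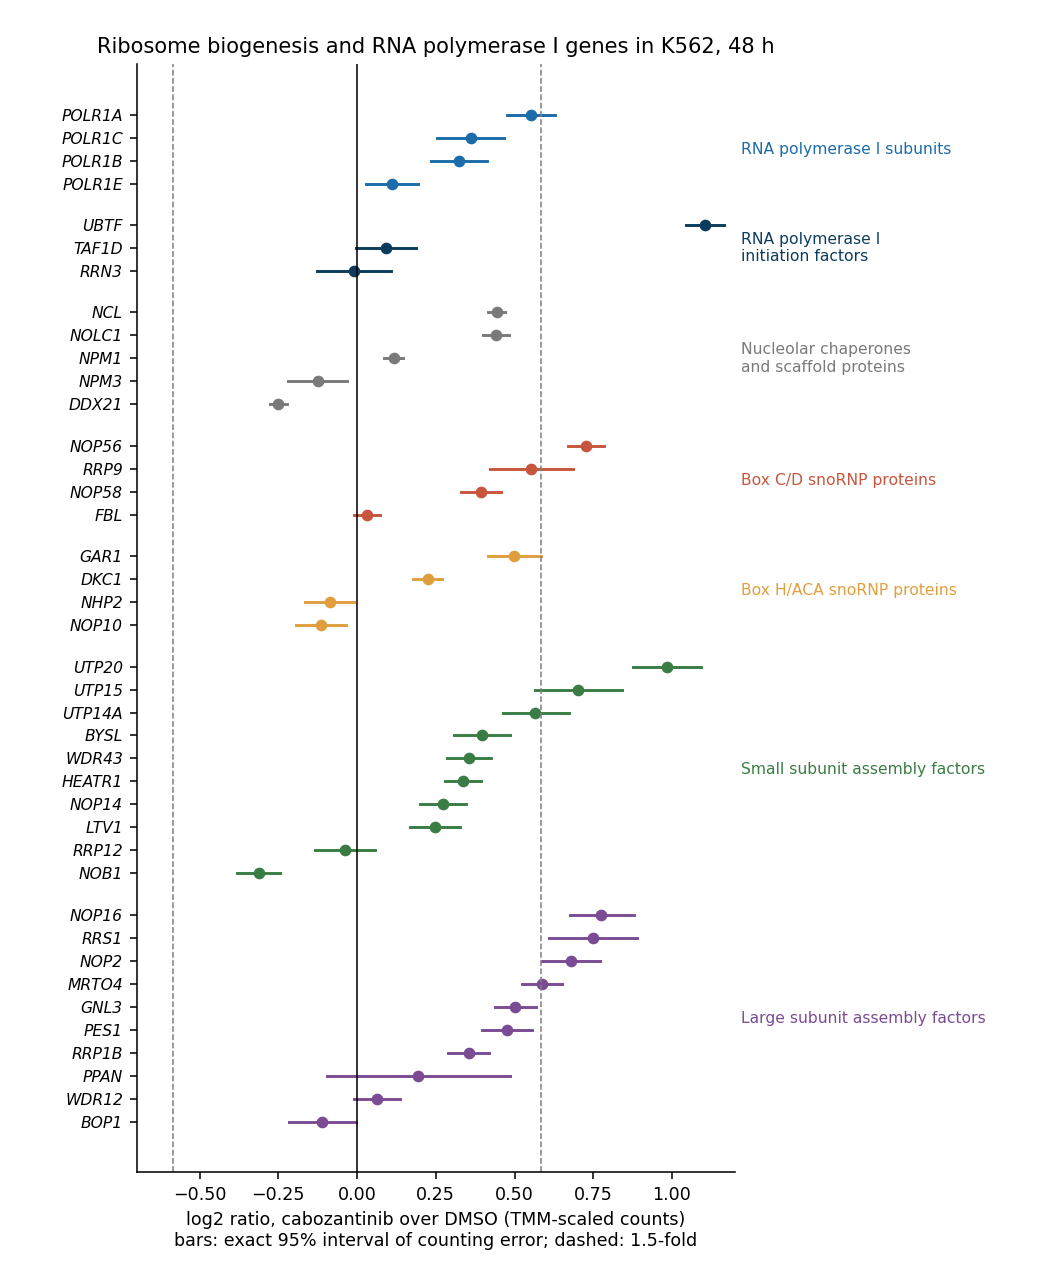
Log2 ratio of cabozantinib over DMSO for each of the 40 genes, by role; points are ratios of TMM-scaled counts, bars are exact 95% intervals of counting error, and dashed lines mark 1.5-fold. UBTF stands at 1.11 and NOB1 at -0.31, and no gene lies beyond the lower dashed line.

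**Figure D2:**
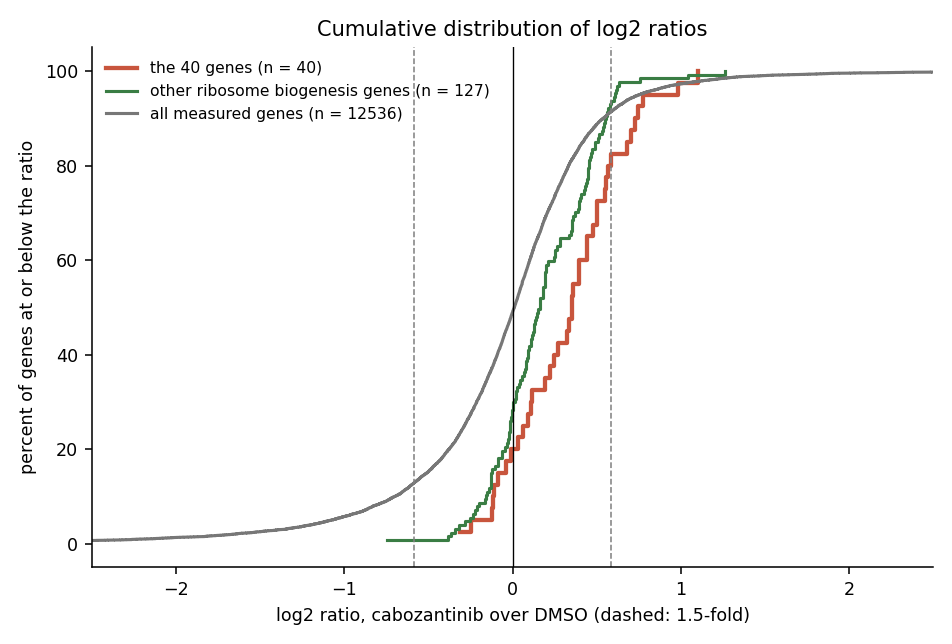
Cumulative percent of genes at or below each log2 ratio (cabozantinib over DMSO) for the 40 genes, for 127 other ribosome biogenesis genes and for all 12536 measured genes; dashed lines mark 1.5-fold. The curve of the 40 genes crosses its middle at 0.35, that of the 127 genes at 0.16 and that of all measured genes at 0.01.

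The size of these values depended on how the libraries were scaled. Scaling by TMM, used for the values here, left the median of all measured genes near 0. Scaling by TPM, in which counts per base of exon sum to the same total in each library, moved that median to -0.17 and the median of the 40 genes to 0.18, and then called 3 of the 40 higher (UBTF, UTP20 and NOP16), against 4.56% of measured genes. Under that scaling 18.0% of measured genes were lower and still 0 of the 40. Scaling by total counts gave 6.05% higher and 14.6% lower over all measured genes, and 7 and 0 of the 40. Each scaling shifts every gene alike, so the distance of 0.34 between the median of the 40 genes and that of all measured genes hardly depends on it. That distance was 0.28 with the abundance trend removed and 0.32 with a filter of 10 CPM.

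Together the 40 genes took 0.748% of all gene counts in the cabozantinib library (95% interval 0.745 to 0.752%) and 0.665% in the DMSO library (0.662 to 0.669%). Their summed level was 7706 CPM with cabozantinib and 6463 CPM with DMSO. A few abundant genes carried much of this. NCL, DDX21, NPM1 and NOLC1 gave 41.2% of the genes' counts with cabozantinib, and DDX21, NCL, NPM1 and FBL gave 45.1% with DMSO.

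Levels of different genes were compared per length, as TMM-scaled CPM per kilobase of exons. The highest level belonged to NPM1, at 433 CPM per kilobase with cabozantinib and 399.5 with DMSO. NCL followed at 413 with cabozantinib and 304 with DMSO, and FBL stood at 329 with cabozantinib and 322 with DMSO. NCL was therefore above FBL in the cabozantinib library and below it in the DMSO library. At the low end were PPAN, at 5.08 with cabozantinib and 4.44 with DMSO, and UTP20, at 8.97 with cabozantinib and 4.54 with DMSO.

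**Figure D3:**
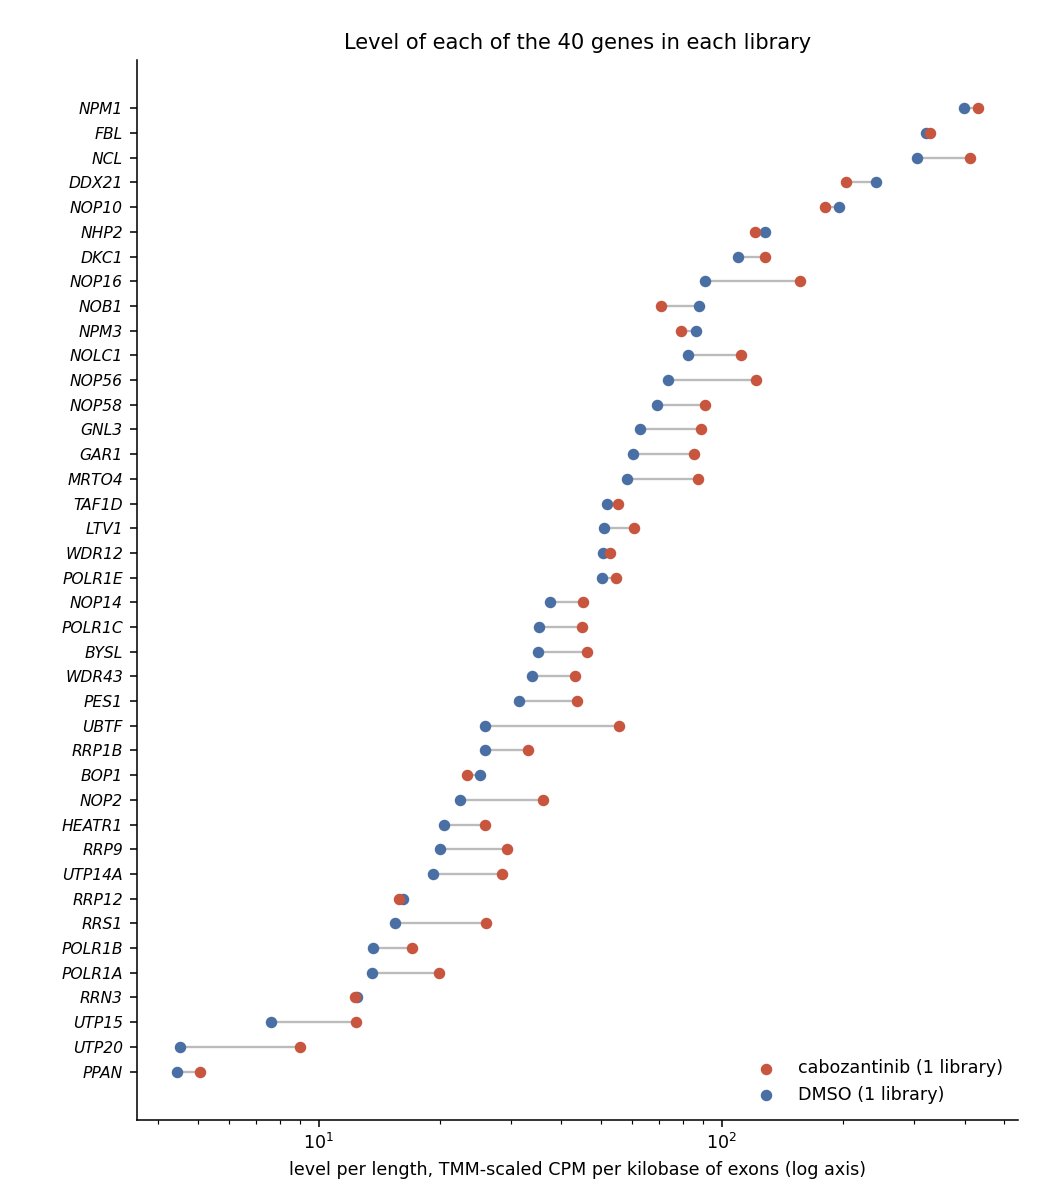
Level of each of the 40 genes in each library, in TMM-scaled CPM per kilobase of exons on a log axis, ordered by the DMSO level; each dot is 1 library. Levels run between 4.44 CPM per kilobase for PPAN with DMSO and 433 for NPM1 with cabozantinib, and the widest gaps between the dots are those of UBTF and UTP20.

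Since MYC is a known regulator of the pathway, promoters were searched for its E-box in RefSeq's promoter table (build GRCh38.p14, 250 bases before to 50 after each start). The table held 33 of the 40 genes. CACGTG, which reads the same on both strands, was present for 15 of the 33 (45.5%), for 32 of 112 other ribosome biogenesis genes (28.6%), for 13.03% of measured protein-coding genes and for 8.77% of all genes of the table. The core of the motif recognised by NRF1, searched on both strands, was present for 8 of the 33 (24.2%), for 17 of 112 other ribosome biogenesis genes (15.2%), for 14.3% of measured protein-coding genes and for 6.98% of all genes of the table. The E-box was present for 3 of 7 genes called higher (42.9%) and for 12 of 26 that were not (46.2%). The median log2 ratio was 0.48 over the 15 genes with it and 0.27 over the 18 without it. The NRF1 motif was present for 1 of 7 genes called higher and for 7 of 26 that were not. The median was 0.29 over the 8 genes with the NRF1 motif and 0.36 over the 25 without it. UBTF, NOP56, NOP16 and UTP15, called higher, had no CACGTG in this window. These are matches of letters and say nothing of binding.

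The 4 promoters below show the E-box near the start in a gene called higher by a wide margin, UTP20, in one at the threshold, MRTO4, in one at no change, FBL, and in one with an interval below no change, DDX21. Of the starts listed for DDX21, only the one shown has it. For UTP20 the first 30 bases after the RefSeq start were not found in a GENCODE transcript of the gene, while those of the other starts shown were. Each runs from 70 bases before the start to 30 after it, 5′ to 3′ on the gene's strand, and the capitals mark CACGTG.
UTP20, chr12:101280035-101280134, plus strand: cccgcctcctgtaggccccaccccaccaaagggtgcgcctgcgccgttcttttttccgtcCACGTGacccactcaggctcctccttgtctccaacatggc
MRTO4, chr1:19251735-19251834, plus strand: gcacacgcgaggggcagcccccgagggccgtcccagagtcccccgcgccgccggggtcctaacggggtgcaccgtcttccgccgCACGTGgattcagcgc
FBL, chr19:39846350-39846449, minus strand: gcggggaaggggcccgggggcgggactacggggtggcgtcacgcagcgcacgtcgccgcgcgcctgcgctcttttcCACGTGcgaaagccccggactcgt
DDX21, chr10:68956577-68956676, plus strand: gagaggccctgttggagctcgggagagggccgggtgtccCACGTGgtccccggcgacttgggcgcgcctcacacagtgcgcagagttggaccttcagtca
The motif begins 10 bases before the start in UTP20 and 31 before it in DDX21, and at base 15 after the start in MRTO4 and base 7 in FBL.

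Among the initiation factors of RNA polymerase I, UBTF stood apart from the other members of its group. UBTF encodes the upstream binding factor, an HMG-box protein that occupies active ribosomal DNA repeats and keeps them open. It lies at chr17:42282401-42298250 (hg19, minus strand, 22 exons). UBTF had 6657 counts (268.7 CPM) with cabozantinib and 3219 counts (125 CPM) with DMSO, a ratio of 2.15 (95% interval 2.06 to 2.24), higher than for 97.8% of measured genes. TAF1D, a subunit of the promoter selectivity factor SL1, had 72.6 CPM with cabozantinib and 68.15 CPM with DMSO. RRN3, which joins the polymerase to the promoter-bound factors, had 46.1 CPM with cabozantinib and 46.5 CPM with DMSO, and its log2 ratio was -0.01. The intervals of TAF1D and RRN3 held no change, and neither overlapped that of UBTF. RRN3 has near copies, 3 of them in the deposited annotation with 274 counts with cabozantinib and 231 with DMSO, so reads could be split between them.

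The 4 polymerase subunits on the list all had intervals above no change, 3 of them were higher at the smaller size, and none reached 1.5-fold. The backgrounds were 34.8% for such intervals, 19.2% at the smaller size and 8.15% at 1.5-fold. POLR1A, the largest and catalytic subunit, had 3269 counts (132 CPM) with cabozantinib and 2319 counts (90.0 CPM) with DMSO, a log2 ratio of 0.55 (0.48 to 0.63). POLR1B, the other large subunit of the catalytic core, had 92.0 CPM with cabozantinib and 73.5 CPM with DMSO. POLR1C, which RNA polymerase III shares, had 64.8 CPM with cabozantinib and 50.5 CPM with DMSO. POLR1E, part of the peripheral heterodimer that aids initiation, had 101 CPM with cabozantinib and 93.6 CPM with DMSO, a log2 ratio of 0.11 (0.03 to 0.19). The interval of POLR1E did not overlap those of POLR1A, POLR1B and POLR1C, and its value lay below 0 under TPM scaling (-0.06).

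Of 14 further genes of the RNA polymerase I machinery, 1 was higher at 1.5-fold and 0 were lower, against backgrounds of 8.15% and 12.3%. The median log2 ratio of this list was 0.15. The 1 called higher was POLR1G, which encodes the partner of POLR1E in the peripheral heterodimer. POLR1G had 1294 counts (52.2 CPM) with cabozantinib and 560 counts (21.7 CPM) with DMSO, a ratio of 2.40 (2.18 to 2.66). The ratios of the heterodimer's genes differed by more than counting error, at 2.40 for POLR1G and 1.08 for POLR1E (1.02 to 1.14). Whether they would differ by more than the spread between cultures was not tested. At the other end of this list POLR1H had 93 counts with cabozantinib and 114 with DMSO, and its interval held no change.

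**Figure D4:**
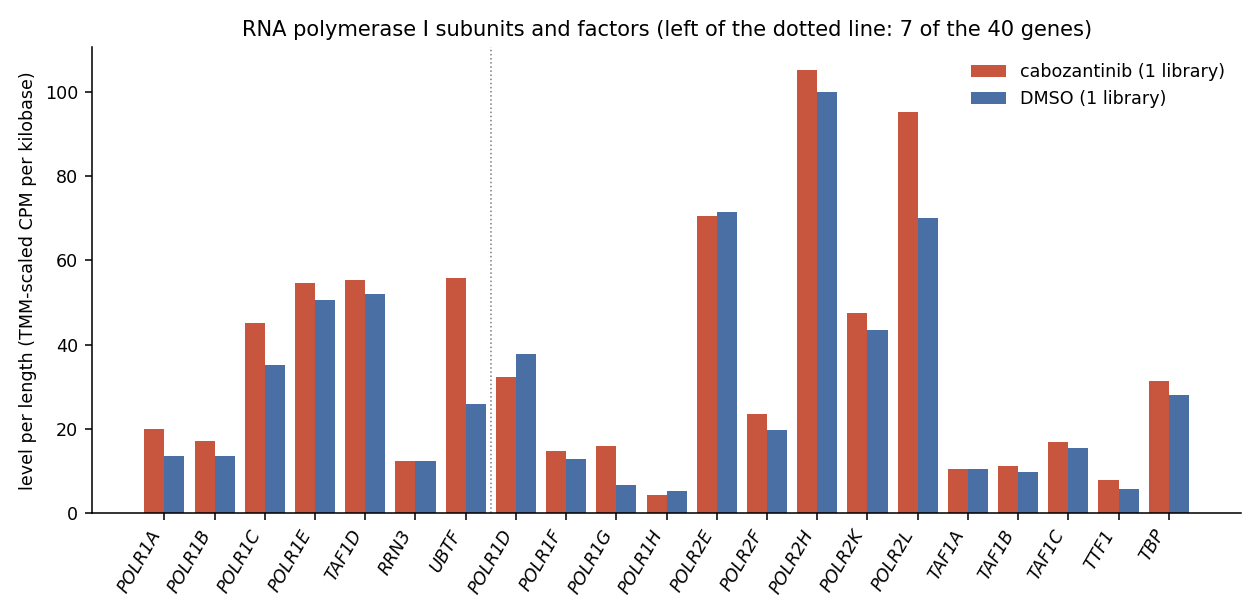
Level per length of each RNA polymerase I subunit and factor in the cabozantinib library (left bar of each pair) and the DMSO library (right bar), in TMM-scaled CPM per kilobase; 7 of the 40 genes stand left of the dotted line and 14 other genes right of it. UBTF, at 55.7 with cabozantinib and 25.9 with DMSO, and POLR1G are the genes whose bars differ by more than 2-fold.

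The nucleolar chaperones and scaffold proteins include the genes with the largest counts of the 40, NCL, DDX21 and NPM1, and had a median log2 ratio of 0.12, which was -0.057 under TPM scaling. None of the 5 was called higher or lower at 1.5-fold. NCL and NOLC1 were higher at the smaller size, against a background of 19.2%. NCL, nucleolin, an RNA-binding protein of the nucleolus, had 27823 counts (1123 CPM) with cabozantinib and 21288 counts (826 CPM) with DMSO. NOLC1, a scaffold and chaperone for snoRNPs, had 439.5 CPM with cabozantinib and 324 CPM with DMSO. NCL and NOLC1 had the same log2 ratio of 0.44. NPM1, nucleophosmin, which organises the outer zone of the nucleolus, had 771 CPM with cabozantinib and 711 CPM with DMSO, a log2 ratio of 0.12 that became -0.06 under TPM scaling. Many processed copies of NPM1 exist in the genome, 50 of them in the RefSeq table, so its count is uncertain.

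DDX21 and NPM3 lay on the other side of no change. DDX21, an RNA helicase that acts on ribosomal RNA transcription and processing, had 20851 counts (842 CPM) with cabozantinib and 25795 counts (1001 CPM) with DMSO, a log2 ratio of -0.25 (-0.28 to -0.22). With DMSO it had the largest count of the 40 genes, and with cabozantinib it came after NCL. NPM3, a small relative of nucleophosmin, had 69.3 CPM with cabozantinib and 75.6 CPM with DMSO. Neither reached the smaller size.

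Among the box C/D snoRNP proteins 1 of 4 was called higher and 3 of 4 were higher at the smaller size, against backgrounds of 8.15% and 19.2%. The median log2 ratio of the group was 0.47. NOP56, a core protein that holds the guide RNA in place, lies at chr20:2633254-2639039 (hg19, plus strand, 12 exons). NOP56 had 6376 counts (257 CPM) with cabozantinib and 4010 counts (156 CPM) with DMSO, a log2 ratio of 0.73 (0.67 to 0.78). Its core partner NOP58 had 178 CPM with cabozantinib and 136 CPM with DMSO, a log2 ratio of 0.39 (0.33 to 0.46), so the intervals of these paired proteins' genes did not overlap. NOP56 shares 86 exon bases with SNORD86, listed at 0 in both libraries, a short stretch of its length. RRP9, a protein of the U3 snoRNP, had 45.2 CPM with cabozantinib and 30.8 CPM with DMSO, a log2 ratio of 0.55. FBL, fibrillarin, the methyltransferase of the complex, had 383 CPM with cabozantinib and 375 CPM with DMSO, a log2 ratio of 0.03 that turned to -0.05 with total counts, -0.06 with the abundance trend removed and -0.14 with TPM. The interval of FBL held no change, and those of the other 3 lay above it.

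The 4 box H/ACA snoRNP proteins spread to both sides of no change, with a median log2 ratio of 0.07, -0.10 under TPM scaling. Against a background of 19.2%, 1 gene of the 4 was higher at the smaller size. That gene was GAR1, which had 2674 counts (108 CPM) with cabozantinib and 1968 counts (76.4 CPM) with DMSO, a log2 ratio of 0.50 (0.41 to 0.58). DKC1, dyskerin, the pseudouridine synthase, had 329.9 CPM with cabozantinib and 282 CPM with DMSO, a log2 ratio of 0.22. The small core proteins NHP2 and NOP10 had intervals below no change. NHP2 had 103 CPM with cabozantinib and 109.5 CPM with DMSO, and NOP10 had 96.6 CPM with cabozantinib and 105 CPM with DMSO. Their log2 ratios were -0.09 and -0.12.

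Among 11 other snoRNP proteins and snoRNP assembly factors, 0 were higher and 0 lower at 1.5-fold, and the median log2 ratio was -0.00. The ends of this list were NUFIP1, an adaptor in box C/D assembly, with 15.99 CPM with cabozantinib and 10.8 CPM with DMSO, and PIH1D1, of the R2TP chaperone complex, with 103 CPM with cabozantinib and 133 CPM with DMSO.

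Of the 10 small subunit assembly factors, 2 were called higher and 6 were higher at the smaller size, against backgrounds of 8.15% and 19.2%. The median log2 ratio of the group was 0.35. The highest of the 10 was UTP20, a very large scaffold protein of the small subunit processome, at chr12:101673905-101780397 (hg19, plus strand, 62 exons). UTP20 had 2001 counts (80.8 CPM) with cabozantinib and 1053 counts (40.9 CPM) with DMSO, a ratio of 1.98 (1.83 to 2.13). UTP15, of the early-binding UTP-A complex, lies at chr5:72861598-72877794 (hg19, plus strand, 13 exons). UTP15 had 1122 counts (45.3 CPM) with cabozantinib and 717 counts (27.8 CPM) with DMSO, a ratio of 1.63 (1.48 to 1.79). Other UTP-A proteins on the list had smaller ratios. HEATR1 had 219 CPM with cabozantinib and 173 CPM with DMSO, and WDR43 had 151 CPM with cabozantinib and 118 CPM with DMSO, with log2 ratios of 0.34 and 0.35.

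UTP14A, whose yeast counterpart activates the helicase that releases the U3 snoRNA, fell just short of the threshold. It had 1807 counts (72.9 CPM) with cabozantinib and 1269 counts (49.25 CPM) with DMSO, a ratio of 1.48 (1.38 to 1.59). NOP14, a processome protein, had 132 CPM with cabozantinib and 109 CPM with DMSO, a log2 ratio of 0.27. Its exons share 268 bases with NOP14-AS1 on the opposite strand, which had 174 counts with cabozantinib and 115 with DMSO. HEATR1 likewise shares 692 bases with LGALS8, and without the strand setting such reads cannot be assigned with certainty.

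BYSL, which stays with the particle into the cytoplasm, had 91.8 CPM with cabozantinib and 69.7 CPM with DMSO, and was higher at the smaller size with a log2 ratio of 0.40. LTV1, a factor of late nuclear and cytoplasmic particles, had 109.6 CPM with cabozantinib and 92.4 CPM with DMSO, a log2 ratio of 0.25. RRP12, which takes part in export, had 69.8 CPM with cabozantinib and 71.6 CPM with DMSO, and its interval held no change. NOB1, the endonuclease that makes the final cut in small subunit rRNA, had the lowest ratio of the 40 genes. It had 3004 counts (121 CPM) with cabozantinib and 3881 counts (150.6 CPM) with DMSO, a log2 ratio of -0.31 (-0.38 to -0.24), short of the smaller size.

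Of 48 other small subunit assembly factors, 3 were higher at 1.5-fold and 0 were lower, against backgrounds of 8.15% and 12.3%. The median log2 ratio of this list was 0.17. UTP3 had 68.8 CPM with cabozantinib and 44.4 CPM with DMSO, a ratio of 1.55 (1.44 to 1.67). IMP3, a protein of the U3 snoRNP, had 69.96 CPM with cabozantinib and 45.5 CPM with DMSO, a ratio of 1.54 (1.43 to 1.66). The third was DHX37, the helicase that UTP14A's yeast counterpart activates, with a ratio of 1.53 (1.42 to 1.65). The lowest of this list was BUD23, an rRNA methyltransferase, with 61.6 CPM with cabozantinib and 73.5 CPM with DMSO, short of the threshold.

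Of the 10 large subunit assembly factors, 4 were called higher and 7 were higher at the smaller size, against backgrounds of 8.15% and 19.2%. The median log2 ratio of the group was 0.49. This was the highest median of the 7 role groups with TMM scaling, and with the abundance trend removed (0.42) it came just below that of the box C/D proteins (0.43). NOP16, a nucleolar protein of the pre-60S particle, lies at chr5:175811232-175815540 (hg19, minus strand, 5 exons). NOP16 had 2073 counts (83.7 CPM) with cabozantinib and 1259 counts (48.9 CPM) with DMSO, a log2 ratio of 0.78 (0.67 to 0.88). RRS1, an intronless gene whose yeast counterpart recruits the 5S ribonucleoprotein, lies at chr8:67341263-67342968 (hg19, plus strand). RRS1 had 1098 counts (44.3 CPM) with cabozantinib and 680 counts (26.4 CPM) with DMSO, a log2 ratio of 0.75 (0.61 to 0.89).

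NOP2, an rRNA cytosine methyltransferase, lies at chr12:6666037-6677480 (hg19, minus strand, 16 exons). NOP2 had 2430 counts (98.1 CPM) with cabozantinib and 1578 counts (61.2 CPM) with DMSO, a log2 ratio of 0.68 (0.59 to 0.77). MRTO4, which holds the place of the ribosomal stalk protein during assembly, lies at chr1:19578075-19586622 (hg19, plus strand, 8 exons). MRTO4 had 4907 counts (198 CPM) with cabozantinib and 3398 counts (132 CPM) with DMSO, a log2 ratio of 0.59 (0.52 to 0.65). It lay at the threshold and passed it with TMM scaling but not with total counts, DESeq2 size factors, upper quartile scaling, TPM, the deposited shrunken ratio or the abundance trend removed.

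GNL3, nucleostemin, a GTP-binding protein of proliferating cells, had 190.0 CPM with cabozantinib and 134 CPM with DMSO, a log2 ratio of 0.50. RRP1B had 168 CPM with cabozantinib and 132 CPM with DMSO, a log2 ratio of 0.35. Both were higher at the smaller size. PPAN, whose yeast counterpart acts in early large subunit assembly, had 209 counts with cabozantinib and 190 with DMSO. That was the smallest count of the 40, and 77.0% of PPAN's exon length is shared with the PPAN-P2RY11 readthrough gene, listed at 0 in both libraries, so reads in the shared exons may be missing from its count.

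PES1, BOP1 and WDR12 form 1 complex, PeBoW, that acts in large subunit rRNA maturation, and their ratios were not alike. PES1 had 3019 counts (122 CPM) with cabozantinib and 2258 counts (87.6 CPM) with DMSO, a log2 ratio of 0.48 (0.40 to 0.56). WDR12 had 2990 counts with cabozantinib and 2977 with DMSO, a log2 ratio of 0.06 (-0.01 to 0.14) that lay below 0 with total counts (-0.02) and TPM (-0.11). BOP1 had 1370 counts with cabozantinib and 1538 with DMSO, a log2 ratio of -0.11 (-0.22 to -0.00). The interval of PES1 overlapped neither of the others. These intervals hold counting error only, and whether the ratios differ by more than the spread between cultures was not tested.

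Of 54 other large subunit assembly factors, 4 were higher at 1.5-fold and 1 was lower, against backgrounds of 8.15% and 12.3%. The median log2 ratio of this list was 0.19. URB2 had 1919 counts (77.5 CPM) with cabozantinib and 968 counts (37.6 CPM) with DMSO, a ratio of 2.06 (1.91 to 2.23). RRP15 had 68.15 CPM with cabozantinib and 40.3 CPM with DMSO, a ratio of 1.69 (1.56 to 1.83). LYAR and CCDC86 were the other genes past the threshold, each at a ratio of 1.52, with intervals of 1.44 to 1.61 for LYAR and 1.43 to 1.61 for CCDC86. The 1 called lower was RSL24D1, a pre-60S factor related to a ribosomal protein, with 5874 counts (237 CPM) with cabozantinib and 10264 counts (398 CPM) with DMSO, 1.68-fold lower (1.63 to 1.73). No gene among the 40 was lower by as much.

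The 4 lists of other RNA polymerase I, snoRNP and subunit assembly genes were also taken as 1 set of 127. At 1.5-fold, 8 were higher and 1 lower, against backgrounds of 8.15% and 12.3% of measured genes. At the smaller size 45 were higher and 4 lower, against 19.2% and 20.5%. The share higher at 1.5-fold was near its background, which was 6.46% with a filter of 10 CPM, and is not read as a difference. The share higher at the smaller size was above its own, and both lower shares were below theirs. The median log2 ratio of the 127 genes, 0.16, lay between that of the 40 genes, 0.35, and that of all measured genes, 0.01. Both sets were drawn up with earlier results of these data known, so the gap between 0.35 and 0.16 is a description.

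**Figure D5:**
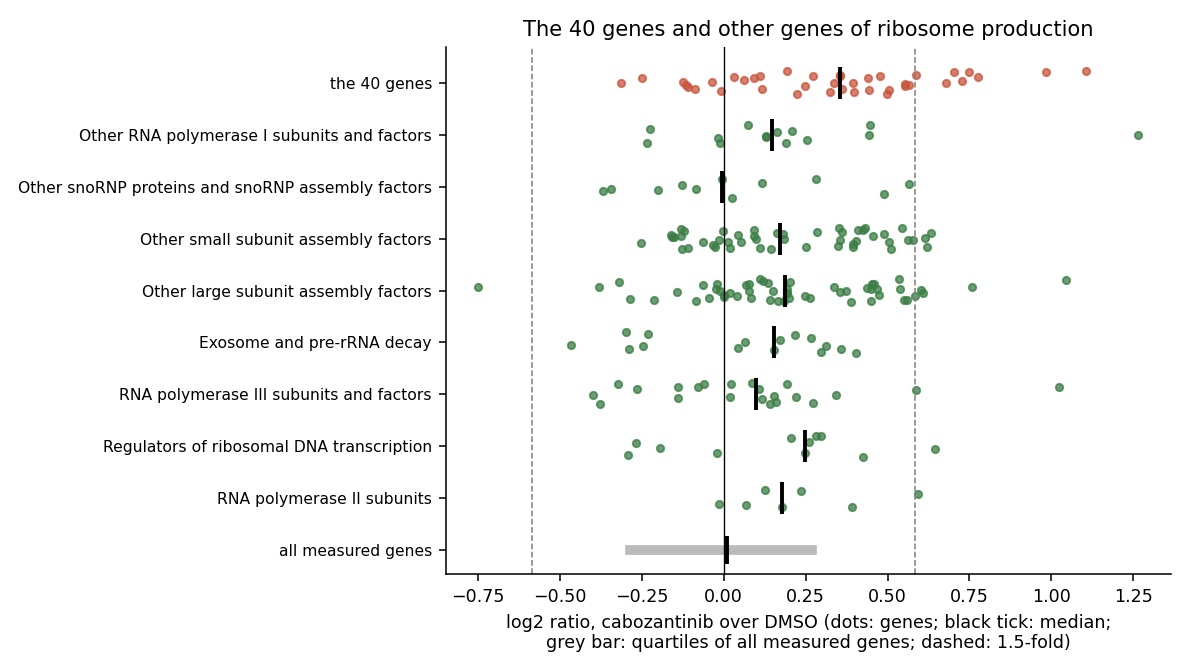
Log2 ratio of cabozantinib over DMSO for the 40 genes and for 8 lists of other genes of ribosome production, with a dot for each gene and a black tick at each list's median; the grey bar spans the quartiles of all measured genes and dashed lines mark 1.5-fold. The tick of the 40 genes stands at 0.35, and those of the other lists lie between -0.00 and 0.25.

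In the authors' deposited table, which gives each gene a posterior probability of differential expression, 2 of the 40 genes reached 0.95: UBTF at 0.998 and UTP20 at 0.980. Over the 17392 genes of that table, 1.39% reached 0.95 and were higher with cabozantinib, and 3.27% reached it and were lower. Both of the 2 were higher, with shrunken ratios of 2.14 and 1.96 in the authors' deposited table. The next of the 40 in the authors' deposited table was NOP16 at 0.592.

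Neither length nor abundance ordered the 40 ratios closely. Across the 40 genes, which share both libraries and are not independent replicates, the log2 ratio had a Pearson r of 0.29 and a Spearman rho of 0.23 with log2 exon length. With mean log2 CPM the values were -0.15 and -0.12.

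Introns of several of these genes hold snoRNA genes. In the deposited annotation 20 snoRNA genes lay within 7 of the 40 genes on the same strand, 19 of them in introns, and 14 had a count in at least 1 library. They summed to 174 counts with cabozantinib and 79 with DMSO, a ratio of 2.28 (1.75 to 3.03). The 364 snoRNA genes outside the 40 genes summed to 6167 counts with cabozantinib and 3699 with DMSO, a ratio of 1.73 (1.66 to 1.81), and the intervals of the sums overlapped. NOP56 hosts 5 of the 20, with 87 counts with cabozantinib and 30 with DMSO, a ratio of 2.98 (1.97 to 4.73) beside 1.65 (1.59 to 1.72) for NOP56 itself. The 3 in NOP58 had 5 counts with cabozantinib and 9 with DMSO, and their interval held no change. These counts are small, and whether reads of unspliced host transcripts entered them was not tested.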

How the data were processed

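The authors deposited raw counts per gene for 1 cabozantinib and 1 DMSO library, from reads aligned with Rsubread to hg19, per the file headers. No header or label states the counting program's strand setting or its treatment of multiply mapped reads; the kit marks strand, per the labels' protocols. The authors' deposited table holds posterior probabilities and fold ratios of cabozantinib over DMSO; 4 of its value columns match no sample label and were not used. TMM library sizes came from edgeR 4.0.16 in R 4.3.3 and size factors from DESeq2 1.42.0. Log2 ratios used a pseudocount of 0.5 counts and exact intervals. With 1 library per group, no test was run. Levels per length were given as TMM-scaled CPM per kilobase in place of TPM, a choice made after seeing the data, because TPM moved the median of all genes; within a library both rank genes alike. Genes, lists and calls were chosen with earlier results of these data known. All 40 genes were named, and of each further list the 2 highest and lowest past 1.5-fold, or the ends of the list, except 1 gene that is not reported here; DHX37, LYAR and CCDC86 were named after their values were seen. The scripts were tested on simulated data.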

Additional observations from a re-analysis of the deposited data

How the results depend on the processing

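No paired analysis was possible because each group was 1 library. Of 320 values of single genes under an alternative that changes the ratio, 309 kept their side of the 1.5-fold threshold, 10 lost their call and 1 gained one. Most of the 309 came from the 32 genes that were not called, so that number says little of how stable the calls were. Only the 8 called genes could lose a call. Each of the 10 losses was of MRTO4 or arose with TPM scaling, which left 3 of the 8 called. With total counts the median log2 ratio was 0.27 for the 40 genes, 0.032 for the nucleolar chaperones, -0.015 for the box H/ACA proteins, 0.26 for the small subunit factors and 0.41 for the large subunit factors, and 4 genes of the 8 other lists were higher instead of 12. With TPM, an alternative chosen after seeing the data, the medians were 0.18 for the 40 genes, 0.17 for the polymerase subunits, -0.082 for the initiation factors, -0.057 for the chaperones, 0.30 for the box C/D proteins, -0.10 for the box H/ACA proteins, 0.17 for the small subunit factors and 0.32 for the large subunit factors, while 3 of the 40 were higher and 3 genes of the other lists were higher and 2 lower. At the smaller size, a log2 ratio of 0.32, the counts were 23 of the 40 higher, and 54 higher and 7 lower in the other lists. At 2-fold they were 1, and 3 and 0. With the abundance trend removed the medians were 0.018 for the chaperones, -0.0051 for the box H/ACA proteins and 0.27 for the small subunit factors, with 9.51% of measured genes higher and 10.5% lower. The median of the chaperones was 0.15 with the length trend removed and 0.28 without the 6 genes whose exons overlap another gene. Among the chaperones that setting dropped DDX21 alone, the lowest of the group at -0.25, and the median moved for that reason. The causes of the other moves were not tested beyond the common shift of each scaling. None of the 40 was lower at 1.5-fold under any alternative run. The depth limits PPAN most, and the spread between cultures is unknown.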

Other observations

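Further lists hold genes that work beside the ribosome production line. For the counts of each list at 1.5-fold, the backgrounds were 8.15% higher and 12.3% lower. Of 22 RNA polymerase III subunits and factors, 2 were higher at 1.5-fold and 0 were lower. Their median log2 ratio was 0.10. Among those called higher, GTF3C4, of the initiation factor TFIIIC, had 1490 counts with cabozantinib and 1031 with DMSO, a log2 ratio of 0.59 (0.47 to 0.70). The lowest of that list was POLR3B, with 27.3 CPM with cabozantinib and 36.0 CPM with DMSO. Its log2 ratio was -0.40 (-0.54 to -0.25), short of the threshold. Of 15 genes of the exosome and pre-rRNA decay, 0 were higher and 0 were lower. Their median was 0.15. The ends of that list were the exosome subunits EXOSC3, with 84.4 CPM with cabozantinib and 63.8 CPM with DMSO, and EXOSC5, with 26.9 CPM with cabozantinib and 37.1 CPM with DMSO.

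Of 12 genes known to regulate ribosomal DNA transcription, repressors and activators, 11 were measured, 1 was higher and 0 were lower. Their median log2 ratio was 0.25. The 1 was EHMT2, a histone methyltransferase, with 778 counts with cabozantinib and 517 with DMSO, a ratio of 1.56 (1.40 to 1.75). The lowest was PHF8, with 25.4 CPM with cabozantinib and 31.1 CPM with DMSO, a log2 ratio of -0.29 (-0.44 to -0.14). Of 7 RNA polymerase II subunits not shared with RNA polymerase I, 1 was higher and 0 lower. Their median was 0.18. The 1 was POLR2A, the largest subunit, with 4978 counts with cabozantinib and 3436 with DMSO, a ratio of 1.51 (1.44 to 1.57). The largest subunits of RNA polymerases I and II, POLR1A and POLR2A, therefore had log2 ratios of 0.55 and 0.59 with overlapping intervals. The lowest of the RNA polymerase II subunits was POLR2G, at a log2 ratio of -0.01 with an interval that held no change.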
